A study of Mus musculus with 2 samples.

Results

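The genes of 10 glycolytic enzymes, Hk1, Hk2, Gpi1, Pfkp, Aldoa, Tpi1, Gapdh, Pgk1, Pgam1 and Pkm, were followed by day and by cell state in donor T cells after allogeneic hematopoietic cell transplantation (allo-HCT). They were matched by symbol among 32285 listed genes. All 10 symbols were found, in 11 rows, since Aldoa is listed under 2 identifiers. The second of these held 2 UMIs at day +7 and 1 UMI at day +14.

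The recipients were lethally irradiated BALB/c mice (H-2d) that received T cell-depleted bone marrow together with T cells taken from spleens of C57BL/6 WT donors (H-2b), a model of acute graft-versus-host disease across a full MHC mismatch. Donor T cells were sorted from recipient spleens as TCRβ+, H2kb+, H2kd- and CD45+, cells of several spleens were pooled, and the names of both libraries carry PBS. The labels' growth protocol gives day +7 as the sort day of both libraries, and the days used here, day +7 and day +14, are those of the sample titles. There was 1 library per day, so no value below has a replicate, and T cells before transfer or from recipients without alloreactivity were not analysed here.

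The libraries held 87124828 and 84233811 UMIs at day +7 and day +14, and 7179 and 7794 barcodes were kept, with median depths of 9210 and 8144 UMIs. T cells, by their CD3 and T cell receptor genes, made up 6952 and 7611 of them. These included 5832 and 5950 CD8 cells, 457 and 695 CD4 cells without Foxp3, and 41 and 38 Foxp3+ cells. Another 206 and 521 T cell barcodes held UMIs of both Cd4 and Cd8a or Cd8b1 and are in none of these gates. Median depth was 12910 and 12467 UMIs in cycling T cells, those with at least 1000 UMIs per 1000000 (CPM) of 11 proliferation genes, against 6812.5 and 5288.5 UMIs in non-cycling T cells. The libraries shared 17 kept barcodes.

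Glycolysis breaks glucose down to pyruvate in the cytosol and yields ATP and NADH. The upper steps phosphorylate glucose and split it into triose phosphates, and the lower steps oxidize these and recover ATP. T cells are known to raise glycolysis when they are activated and divide, and the inducible hexokinase Hk2 is a known part of that switch.

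In CD8 cells, all 10 enzymes took a larger share of UMIs at day +14 than at day +7, although Hk2 turned to -0.03 on the log2 scale when the libraries were scaled by the median ratio of genes. The enzymes together went from 3692 to 5714 CPM, a log2 difference of 0.63 (95% interval 0.62 to 0.64). Of the 10, 5 were at least 1.5-fold higher at day +14 and 0 at least 1.5-fold lower, where 9.81% and 2.91% of the 6830 genes tested passed these folds. The median log2 ratio of the enzymes was 0.62 and that of all genes tested 0.19. The median ratio of the 9852 genes used for scaling was 0.22, and relative to it the median of the enzymes was 0.40. After this scaling 4 enzymes were at least 1.5-fold higher, and Aldoa, at 0.48, was not among them. The share of all genes that pass after this scaling is not given, so that count has no background beside it. Other genes of CD8 cells moved between the days as well, with a cytotoxic list at 5591 and 983 CPM and a stimulation list at 503 and 1185 CPM, and their part in the enzyme values was not tested.

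The hexokinases, which open the pathway by phosphorylating glucose, stayed under 1.5-fold in CD8 cells. Hk1 (chr10:62268855-62379908, GRCm38), the widely expressed form, held 32.9 CPM at day +7 and 44.3 CPM at day +14 (log2 ratio 0.43, 0.35 to 0.51). Hk2 (chr6:82725025-82774454) held 17.9 and 20.4 CPM (log2 ratio 0.18, 0.07 to 0.30), the lowest ratio of the 10 enzymes.

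The next steps prepare the sugar for cleavage and then cleave it. Gpi1 (chr7:34201330-34230336), the isomerase that turns glucose phosphate into fructose phosphate, held 221 and 321 CPM in CD8 cells (log2 ratio 0.54, 0.51 to 0.57). Pfkp (chr13:6579768-6648777), a phosphofructokinase of the committed step, held 134 and 176 CPM (log2 ratio 0.39, 0.35 to 0.43). Aldoa (chr7:126795234-126800751), the aldolase that splits fructose bisphosphate, held 472 and 767 CPM (log2 ratio 0.70, 0.68 to 0.72). Among the 10 enzymes, Aldoa was the first along the pathway past 1.5-fold. This depended on the scaling, since Aldoa was at 0.48, under that fold, when scaled by the median ratio of genes.

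Tpi1 (chr6:124810586-124814296), which interconverts the triose phosphates, had the largest ratio of the 10 enzymes in CD8 cells. Its level went from 206 CPM (14091 UMIs) to 528 CPM (34795 UMIs), with a log2 ratio of 1.36 (1.33 to 1.39). Gapdh (chr6:125161715-125166467), which oxidizes glyceraldehyde phosphate and often serves as a reference gene, went from 1789 to 2332 CPM, with a log2 ratio of 0.38 (0.37 to 0.39). Neighbouring steps of the pathway thus differed in size of change, and Gapdh was under 1.5-fold.

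After Gapdh, each of the other 3 enzymes passed 1.5-fold in CD8 cells. Pgk1 (chrX:106187100-106203699), the kinase that recovers the first ATP, held 274 and 497 CPM (log2 ratio 0.86, 0.83 to 0.88). Pgam1 (chr19:41911923-41918660), the phosphoglycerate mutase, held 172 and 333 CPM (log2 ratio 0.95, 0.92 to 0.99). Pkm (chr9:59656368-59679375), the pyruvate kinase of most tissues, held 373 and 697 CPM (log2 ratio 0.90, 0.88 to 0.92).

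**Figure D1:**
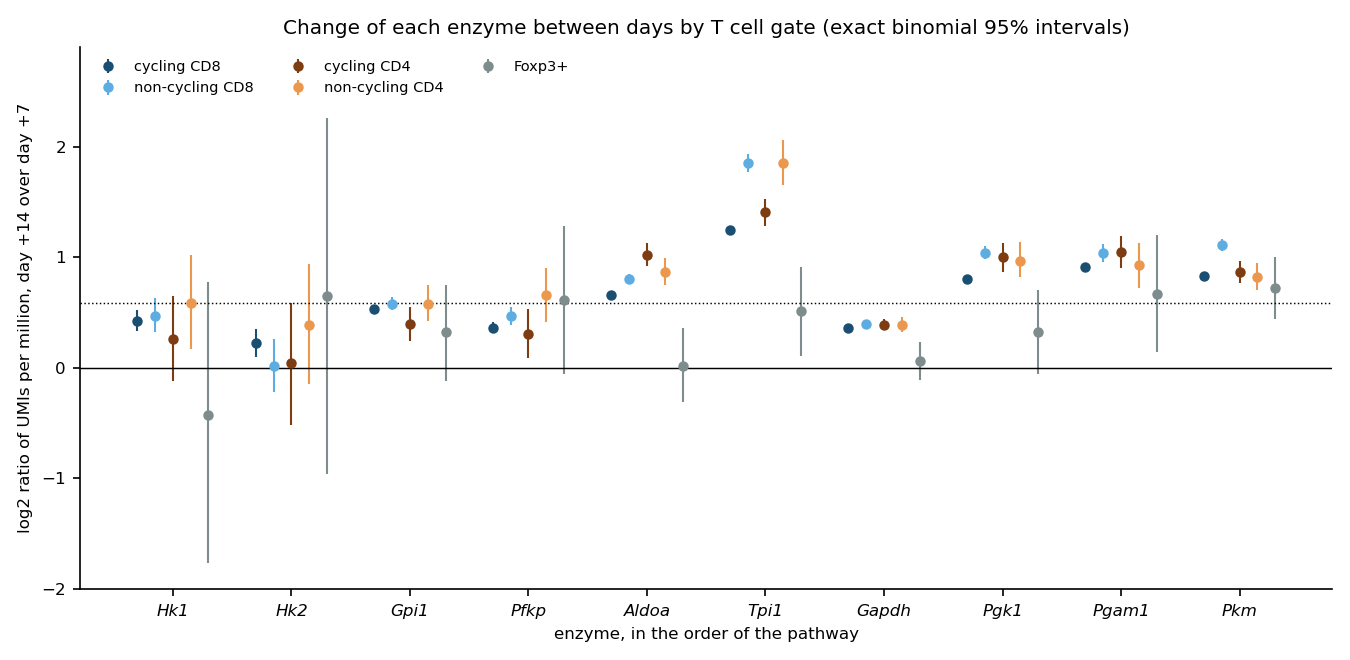
Log2 ratio of CPM at day +14 over day +7 (y axis) for each enzyme (x axis), with 1 point per T cell gate, exact binomial 95% intervals that cover counting error only, and a dotted line at 1.5-fold. Tpi1 reached 1.85 in non-cycling CD8 cells, Gapdh lay between 0.06 and 0.40, the Foxp3+ points, from 41 and 38 cells, have wide intervals, and scaling by the median ratio turned Hk2 from 0.02 to -0.20 in non-cycling CD8 cells and also below 0 in cycling CD4 cells.

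Of the enzymes past 1.5-fold, 3 are shown by the 250 bases before a RefSeq gene start (GRCm38.p6), because Pgk1 and Pgam1 moved together with Tpi1 and hold different letters there. ACGTG, the core of a hypoxia response element, and its reverse complement CACGT are in capitals. The windows are chr6:124814159-124814408 on the minus strand for Tpi1, chrX:106186850-106187099 on the plus strand for Pgk1 and chr19:41911621-41911870 on the plus strand for Pgam1.
Tpi1: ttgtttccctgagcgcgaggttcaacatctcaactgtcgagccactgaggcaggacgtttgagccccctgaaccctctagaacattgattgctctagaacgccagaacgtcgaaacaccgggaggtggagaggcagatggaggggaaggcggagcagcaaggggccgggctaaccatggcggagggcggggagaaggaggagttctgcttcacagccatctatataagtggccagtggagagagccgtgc
Pgk1: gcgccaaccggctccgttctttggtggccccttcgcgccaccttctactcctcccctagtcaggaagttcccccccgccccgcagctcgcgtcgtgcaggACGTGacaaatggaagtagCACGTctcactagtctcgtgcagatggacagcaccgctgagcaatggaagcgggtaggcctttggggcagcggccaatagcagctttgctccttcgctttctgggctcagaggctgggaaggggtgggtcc
Pgam1: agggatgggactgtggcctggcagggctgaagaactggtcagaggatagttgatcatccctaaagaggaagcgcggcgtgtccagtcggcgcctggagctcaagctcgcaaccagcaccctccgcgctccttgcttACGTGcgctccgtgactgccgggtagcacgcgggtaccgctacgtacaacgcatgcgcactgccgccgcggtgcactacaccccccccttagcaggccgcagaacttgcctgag
ACGTG on either strand was in 16.6% of the 32851 promoter windows of this length, and in 6 of the 14 windows of the enzymes, which belong to 5 of the 10 genes. The Aldoa windows that hold it overlap and share the same place, and a share per gene over all genes was not computed. The Pgk1 window held ACGTG at 2 places, the Pgam1 window at 1 and the Tpi1 window at 0. The window of Hk2, the enzyme with the lowest day ratio in CD8 cells, held it at 2. CACGTG, which contains ACGTG, was in 6.02% of all windows and in 0 of the windows of the enzymes. A match describes letters and is not a binding site.

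Over all their cells, the CD4 and CD8 gates differed by less than 1.5-fold in each enzyme. Of the 10 enzymes, 0 were at least 1.5-fold higher or lower in CD4 than in CD8 cells at day +7, where 4.09% and 2.29% of genes were, and 0 at day +14, where 7.08% and 3.24% were. The hexokinase Hk2 had the highest log2 ratio of CD4 over CD8, at 0.34 (0.04 to 0.62) and then 0.39 (0.12 to 0.64). Pfkp was lower in CD4 cells on both days, at 112 against 134 CPM (log2 ratio -0.26, -0.39 to -0.13) and 155 against 176 CPM (log2 ratio -0.18, -0.28 to -0.07). Cycling cells were 187 of 457 CD4 and 3356 of 5832 CD8 cells at day +7, and 200 of 695 and 3482 of 5950 at day +14. Among non-cycling cells alone, 0 enzymes passed 1.5-fold in either direction at day +7, where 7.18% of genes were higher in CD4 cells and 3.99% lower, and 1 was higher and 0 lower at day +14, where 9.41% and 4.18% were. That enzyme was Hk2, at 31.2 CPM (76 UMIs) in non-cycling CD4 and 17.1 CPM (267 UMIs) in non-cycling CD8 cells (log2 ratio 0.87, 0.48 to 1.24).

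Between the days, the same 5 enzymes passed 1.5-fold in CD4 as in CD8 cells, namely Aldoa, Tpi1, Pgk1, Pgam1 and Pkm, and 0 were lower, where 15.6% and 2.99% of the 6982 genes tested passed. Scaled by the median ratio, Aldoa was at 0.85 in CD4 cells but at 0.48, under 1.5-fold, in CD8 cells. The median of the enzymes in CD4 cells was 0.66 and that of all genes tested 0.17. Tpi1 went from 199 to 561 CPM in CD4 cells, which is 2.82-fold. Aldoa went from 413 to 796 CPM, with a log2 ratio of 0.95 (0.87 to 1.03) against 0.70 (0.68 to 0.72) in CD8 cells. The difference between the lineages was not tested, since it would need replicates.

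Within CD8 cells, Tpi1, Pgk1, Pgam1 and Pkm were the enzymes at least 1.5-fold higher in cycling than in non-cycling cells at day +7, and Tpi1 and Pgam1 at day +14. At day +7, 4 of 10 enzymes were at least 1.5-fold higher and 0 lower in cycling cells, where 14.2% and 6.90% of 6523 genes were. At day +14 it was 2 higher and 0 lower, where 12.6% and 9.05% of 7068 genes were. The median of the enzymes was 0.42 at day +7 and 0.37 at day +14, against 0.05 and 0.01 for all genes tested. Cycling cells also had more UMIs per cell, and after each cell was thinned to 4000 UMIs the counts of higher enzymes were 3 and 1. With the cut between non-cycling and cycling cells moved up to 2000 CPM of the proliferation genes, they were 2 at day +7 and 0 at day +14. That cut also places cells just below 2000 CPM, counted as cycling before, in the non-cycling group. It therefore does not show how strictly cycling cells differ from the original non-cycling cells. With the cut at 500 CPM the counts were 4 at day +7 and 2 at day +14. For thinned cells and moved cuts the share of all genes is not given.

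Tpi1 again had the largest ratio. It held 90.7 CPM in non-cycling and 248 CPM in cycling CD8 cells at day +7 (log2 ratio 1.45, 1.37 to 1.52). At day +14 it held 328 and 590 CPM (log2 ratio 0.85, 0.80 to 0.89). Non-cycling CD8 cells of day +14 thus held more Tpi1 per 1000000 UMIs than cycling CD8 cells of day +7.

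Pgk1, Pgam1 and Pkm had similar ratios of cycling over non-cycling cells at day +7 and spread out at day +14. Pgk1 was at a log2 ratio of 0.72 (0.66 to 0.77) at day +7 and 0.47 (0.43 to 0.51) at day +14. Pgam1 was at 0.73 (0.66 to 0.80) and then 0.61 (0.56 to 0.66). Pkm was at 0.71 (0.66 to 0.76) and then 0.43 (0.40 to 0.46), from 255 against 417 CPM and 551 against 742 CPM. Gapdh had nearly the same ratio on both days, 0.44 (0.42 to 0.46) and 0.41 (0.39 to 0.43), and Aldoa had 0.39 (0.35 to 0.43) and 0.25 (0.22 to 0.28).

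None of the 4 enzymes ahead of aldolase passed 1.5-fold with the cycle on either day. Gpi1 was lower in cycling CD8 cells, at a log2 ratio of -0.08 (-0.13 to -0.03) and -0.14 (-0.18 to -0.09). Hk1 was at -0.12 (-0.25 to 0.02) and -0.17 (-0.29 to -0.05). Hk2 was at 0.12 (-0.06 to 0.31) and 0.32 (0.13 to 0.52), and Pfkp at 0.16 (0.10 to 0.23) and 0.06 (-0.01 to 0.12). The signs of these upper enzymes were thus mixed, and the ratio of Hk2 at day +14 was above that of Aldoa.

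Both cell cycle states held more enzyme UMIs at day +14. In cycling CD8 cells 5 of 10 enzymes were at least 1.5-fold higher and 0 lower, where 8.20% and 2.75% of genes were. In non-cycling CD8 cells the counts were also 5 and 0, where 17.4% and 3.28% of genes passed. Over all T cells they were 5 and 0 in cycling cells, where 8.30% and 2.73% of genes passed, and 5 and 0 in non-cycling cells, where 18.2% and 3.15% passed. In CD4 cells they were 5 and 0 in 187 and 200 cycling cells, where 12.2% and 4.20% passed, and 7 and 0 in 270 and 495 non-cycling cells, where 23.9% and 4.24% passed. Hk1, at 36.5 and 55.0 CPM, and Pfkp, at 106 and 166 CPM, passed there besides the others, and Gpi1, at 243 and 364 CPM, had a log2 ratio of 0.58. Scaled by the median ratio, the count of higher enzymes was 4 in both states of CD8 cells and of all T cells. The share of all genes under that scaling is not given.

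The day ratio of Tpi1 was larger in non-cycling CD8 cells, at 3.62-fold, than in cycling CD8 cells, at 2.38-fold. For Pkm the log2 ratios were 1.11 (1.06 to 1.16) in non-cycling and 0.83 (0.81 to 0.86) in cycling CD8 cells. For Hk2 they were 0.02 (-0.22 to 0.26) and 0.22 (0.10 to 0.35). These differences between states were not tested against replicate spread.

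CD8 cells were also grouped in bins by the CPM of the 11 proliferation genes. On each day, 6 enzymes were highest in cells at 2000 to 4000 CPM of the list and lower in cells at 4000 CPM or more, namely Aldoa, Tpi1, Gapdh, Pgk1, Pgam1 and Pkm. At day +7 Tpi1 went from 72.5 CPM in the lowest bin to 293 CPM at 2000 to 4000 CPM, and stood at 224 CPM in the highest bin. At day +14 these levels were 275, 649 and 547 CPM. Hk1 showed no such course, at 36.3, 29.7 and 34.5 CPM at day +7, and Pfkp was highest in the highest bin on both days, at 155 and 192 CPM. Hk2 held 21.8 and 24.3 CPM at 2000 to 4000 CPM of the list, within counting error of its highest levels, 21.9 and 25.2 CPM. In cells at 4000 CPM or more it held 15.3 and 17.7 CPM.

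**Figure D2:**
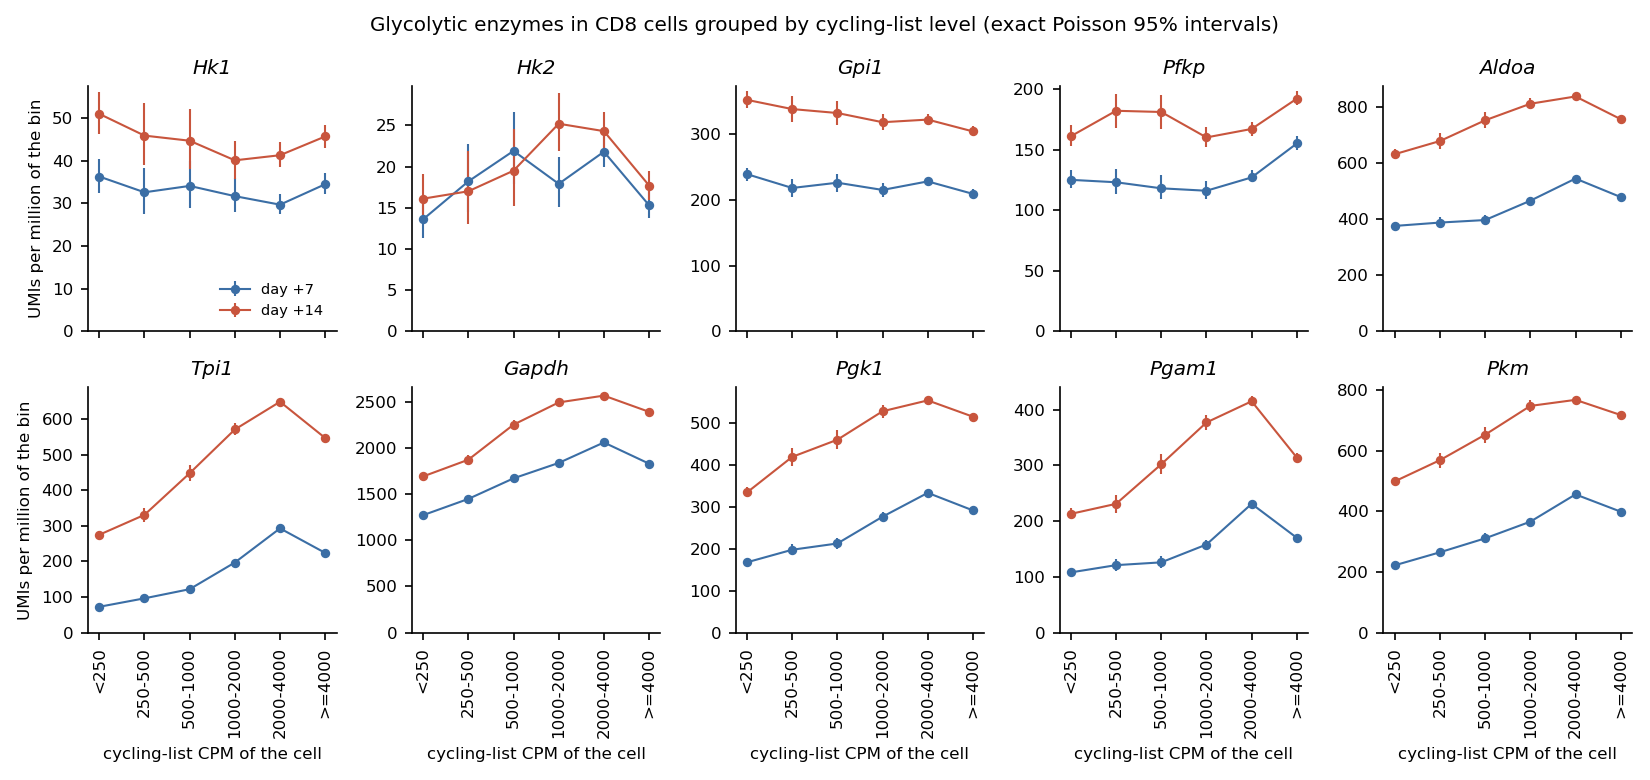
CPM (y axis) of each enzyme in CD8 cells grouped by the CPM of 11 proliferation genes in the cell (x axis), at day +7 (blue) and day +14 (red), with exact Poisson 95% intervals. Aldoa, Tpi1, Gapdh, Pgk1, Pgam1 and Pkm peak at 2000 to 4000 CPM on both days. The other 4 do not, although Hk2 is within counting error of its highest level there. The median UMIs per cell go from 6428 to 14963 over the bins at day +7 and from 5169 to 13222 at day +14.

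Within cycling CD8 cells, those with more UMIs of Pclaf, Rrm2 and Tyms, genes of DNA synthesis, than of the other 8 genes of the list (563 cells at day +7, 587 at day +14) were set against the rest. Of the 10 enzymes, 0 differed by 1.5-fold at day +7, where 2.49% of genes were higher and 4.03% lower, and 0 at day +14, where 2.17% and 4.51% were. Tpi1 was higher in the former cells, at a log2 ratio of 0.30 (0.23 to 0.36) and 0.16 (0.12 to 0.20). Hk1 was lower, at -0.21 (-0.41 to -0.01) and -0.36 (-0.54 to -0.18).

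Non-cycling CD8 cells were divided by lists of stimulation, cytotoxic and stem-like genes, each cell thinned to 4000 UMIs, with cells at or above the 75th percentile set against those at or below the 25th. At day +7, 2395 cells were thinned. The high and low groups held 810 and 981 for stimulation, 599 and 637 for cytotoxic and 1034 and 1361 for stem-like genes. At day +14, 2063 cells were thinned, and these groups held 545 and 761, 673 and 519, and 548 and 1515. The stem-like groups thus took in every thinned cell on both days, so that division is not a contrast of extremes. Of the 10 enzymes, 0 differed by 1.5-fold in any of the 3 divisions on either day. For the stimulation list 1.33% of genes were higher and 0.363% lower at day +7, and 3.35% and 1.68% at day +14. For the cytotoxic list these shares were 2.21% and 3.37%, then 3.91% and 2.20%, and for the stem-like list 0.552% and 0.221%, then 1.76% and 1.06%. The median log2 ratio of the enzymes was 0.08 at day +7 and -0.14 at day +14 for the stimulation list, -0.07 and -0.14 for the cytotoxic list, and -0.14 and 0.06 for the stem-like list. The log2 day ratio of Tpi1 lay between 1.79 and 2.06 in all 6 groups of cells. Since the percentiles belong to each day, groups of the same name were not at the same level of their list. The high cytotoxic group held 14801 CPM of its list at day +7 and 2458 CPM at day +14. The low group held 656 and 72.2 CPM. The day ratio of Tpi1 at a matched level of these lists was not tested.

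Foxp3+ cells were few. Foxp3, which chose them, held 251 and 332 CPM, from 97 and 82 UMIs, and at least 2 Foxp3 UMIs were in 23 cells on each day. Of the other regulatory T cell genes looked at, Ikzf2 held 576 and 1004 CPM, Ctla4 383 and 797 CPM and Il2ra 238 and 178 CPM. Another 157 and 51 T cells held UMIs of Foxp3 and of Cd8a or Cd8b1 and are outside this gate. Of the 10 enzymes, 4 were at least 1.5-fold higher at day +14 and 0 lower, where 30.3% and 13.6% of the 6875 genes tested were, so that the count is near the background. The 4 were Hk2, which rests on 8 UMIs on each day, Pfkp, Pgam1 and Pkm. After thinning to 4000 UMIs the count was 1, with no share of all genes given. Pkm held 535 CPM (207 UMIs) and 882 CPM (218 UMIs), with a log2 ratio of 0.72 (0.44 to 1.00). Tpi1 held 292 CPM (113 UMIs) and 417 CPM (103 UMIs), with a log2 ratio of 0.51 (0.11 to 0.91).

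Aldoa and Gapdh were at nearly the same level on both days in Foxp3+ cells. Aldoa held 501 and 510 CPM (log2 ratio 0.02, -0.31 to 0.36), and Gapdh held 1776 and 1850 CPM (log2 ratio 0.06, -0.11 to 0.23). In CD4 cells without Foxp3 the ratios were 0.95 (0.87 to 1.03) and 0.37 (0.33 to 0.41). These intervals do not meet those of Foxp3+ cells, but they cover counting error of summed UMIs and not the spread between cells. The difference was not tested. After thinning, Aldoa was at -0.06 and Gapdh at -0.18 in Foxp3+ cells. No change of Hk2 was detectable at this depth.

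Single cells showed a shift in the sum of the 10 enzymes. Gapdh weighs most in it, with 1789 of 3692 CPM at day +7 and 2332 of 5714 CPM at day +14 in CD8 cells. The same shares were not computed for other genes, whose median ratio in CD8 cells was 0.22. After thinning to 4000 UMIs, the median CD8 cell held 12 UMIs of the 10 enzymes at day +7 (10th to 90th percentile 7 to 21, 5735 cells) and 19 at day +14 (10 to 35, 5474 cells). At day +14, 80.1% of CD8 cells were above the day +7 median, against 49.7% at day +7 itself. The shares were 80.8% against 49.8% in CD4 cells, and 55.2% (29 cells) against 47.5% (40 cells) in Foxp3+ cells.

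Barcodes low in T cell genes (non-T) served as a comparison, and the sort for TCRβ+ cells left 183 of them at day +7 and 118 at day +14. At day +7, 111 were erythroid-like and 72 myeloid-like, and at day +14, 22 and 93, with the few left in neither group. The erythroid-like ones held Car1 at 1981 and 2329 CPM and Klf1 at 208 and 286 CPM, but Hbb-bs at 141 and 13502 CPM, and their median depth was 32315 and 2446.5 UMIs, so that cells under this name differed between the days. T cell genes were at 75.7 and 121 CPM in erythroid-like and 80.4 and 146 CPM in myeloid-like barcodes, against 5978 and 7646 CPM in CD8 cells.

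Hk1 and Pkm set the erythroid-like cells apart from CD8 cells. Erythroid-like cells held Hk1 at 145 CPM at day +7 against 32.9 CPM in CD8 cells (log2 ratio 2.14, 1.99 to 2.28). They held Pkm at 42.1 CPM against 373 CPM (log2 ratio -3.15, -3.41 to -2.90). Of the 10 enzymes, 2 were at least 1.5-fold higher and 5 lower than in CD8 cells at day +7, where 33.0% and 23.0% of genes were. Between the days, 0 of the 9 enzymes tested were higher in erythroid-like cells and 5 were lower, where 24.5% and 22.9% of genes were. At day +14 these 5 held 1 UMI (Pfkp), 2 (Pkm), 6 (Pgam1), 15 (Gpi1) and 27 UMIs (Aldoa). Among the 5, the interval was clear of 0 for Aldoa only (-1.39 to -0.23). Hk2 had 0 UMIs among 132648 there at day +14, which allows up to 22.6 CPM.

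Myeloid-like cells held S100a8 at 97517 and 89980 CPM, while a macrophage list was at 1936 and 361 CPM and the median mitochondrial share at 2.22% and 0.739%, so that the make-up of this gate differed between the days. At day +7, 4 of 10 enzymes (Hk2, Gpi1, Pgam1 and Pkm) were at least 1.5-fold higher and 1 (Pfkp) lower than in CD8 cells, where 22.3% and 38.2% of genes were. At day +14, 2 (Hk2 and Gpi1) were higher and 2 (Hk1 and Pfkp) lower, where 20.8% and 38.6% of genes were. Hk2 held 51.8 CPM (38 UMIs) against 17.9 CPM at day +7, a log2 ratio of 1.53, and 85.7 CPM against 20.4 CPM (log2 ratio 2.07, 1.68 to 2.44) at day +14. Pfkp was lower than in CD8 cells, at 65.4 CPM (log2 ratio -1.03, -1.47 to -0.63) and 99.8 CPM (log2 ratio -0.82, -1.17 to -0.48).

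Between the days, 5 of 10 enzymes were at least 1.5-fold higher in myeloid-like cells and 0 lower, where 21.3% and 10.8% of genes were. Pkm went from 574 to 974 CPM there, with a log2 ratio of 0.76 (0.59 to 0.94). The part of the lower macrophage level in these values was not tested. Over all non-T barcodes the counts were 7 and 1, where 26.2% and 31.0% of genes passed. The mix of erythroid-like and myeloid-like barcodes changed as well, and mix and change within cells cannot be told apart in that sum.

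**Figure D3:**
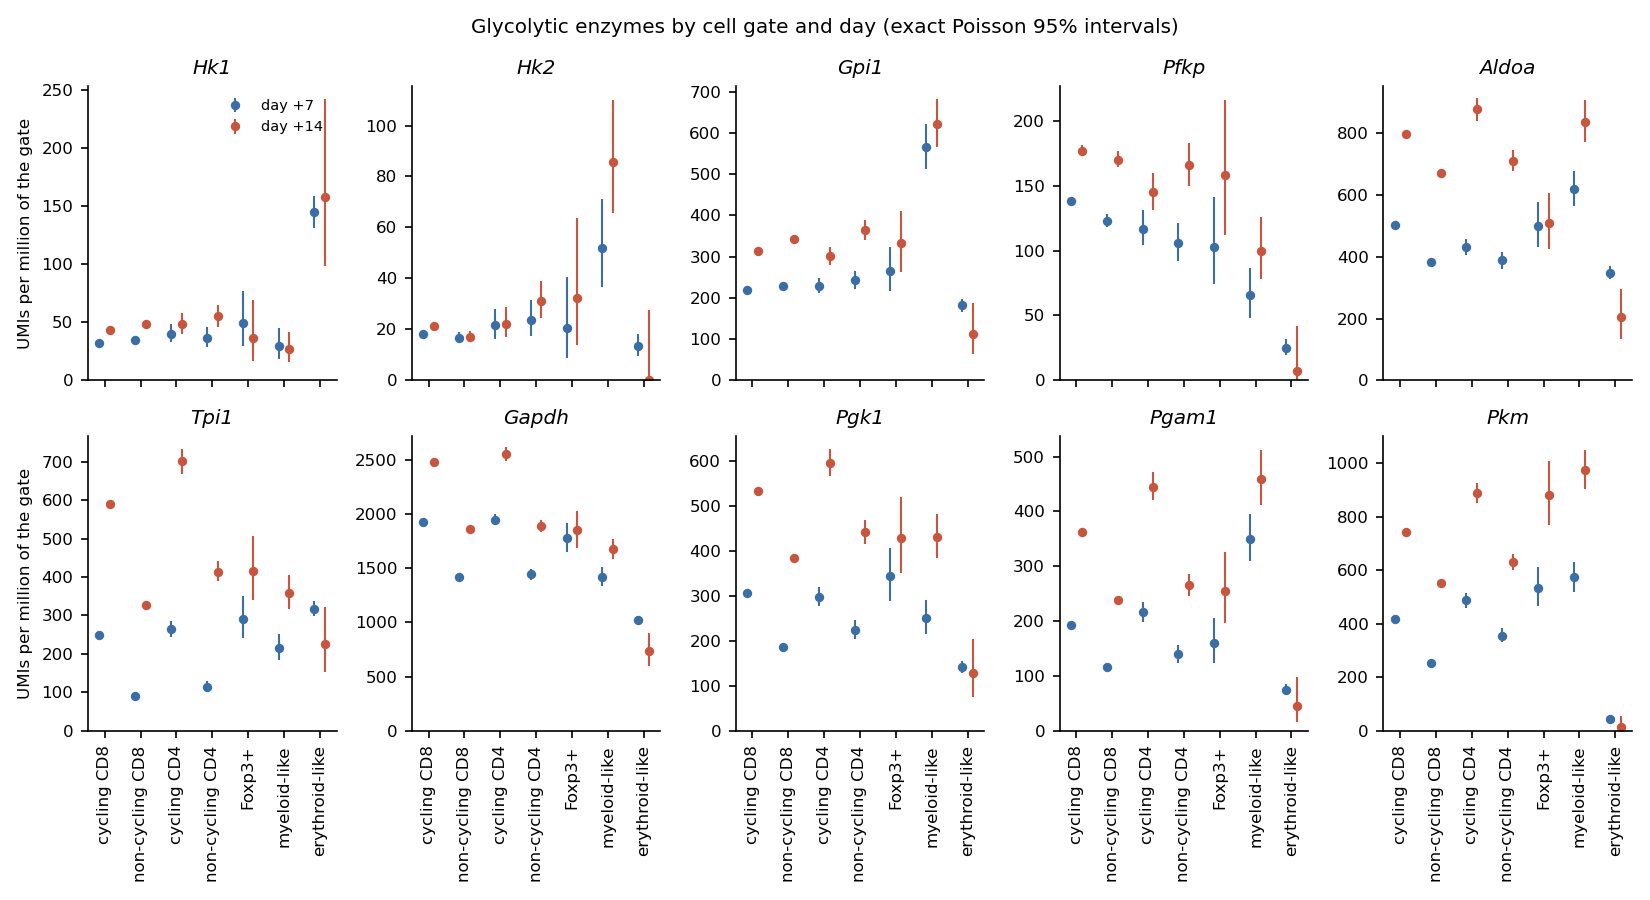
CPM of the gate (y axis, from 0) of each enzyme by cell gate (x axis) at day +7 (blue) and day +14 (red), with exact Poisson 95% intervals. Tpi1 ranges from 90.7 CPM in non-cycling CD8 cells at day +7 to 701 CPM in cycling CD4 cells at day +14, and erythroid-like cells stand apart by high Hk1 and low Pkm and Pfkp.

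Steps with more than 1 isozyme showed different make-ups by cell type. Hk1 gave 64.7% (95% Clopper-Pearson interval 63.1% to 66.3%) of the UMIs of Hk1 and Hk2 in CD8 cells at day +7 and 68.5% (67.1% to 69.9%) at day +14. It gave 91.6% (88.8% to 93.9%) in erythroid-like and 36.7% (24.6% to 50.1%) in myeloid-like cells at day +7. Hk3, another hexokinase, is not in these shares. It held 0.513 and 0.352 CPM in T cells, and its level in erythroid-like and myeloid-like cells is not given. Pfkp gave 85.9% (85.3% to 86.6%) of the UMIs of Pfkp, Pfkl and Pfkm in CD8 cells at day +7 and 79.9% (79.2% to 80.5%) at day +14. In CD4 cells this share was 81.2% (78.0% to 84.2%) and then 73.1% (70.4% to 75.8%). Pkm gave 53.7% (47.2% to 60.1%) of the UMIs of Pkm and Pklr, the pyruvate kinase of liver and red cells, in erythroid-like cells at day +7.

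Of 28 other genes of the pathway, 11 reached 10 CPM in T cells on at least 1 day. Of these, 8 were at 10 CPM on both days, and 3, Slc16a3, Pfkfb3 and Tigar, reached it at day +14 only and so had to be higher then, so that the 11 are given by their values and not as a count. Slc16a3, an exporter of lactate, went from 8.40 to 51.1 CPM in CD8 cells (log2 ratio 2.60, 2.48 to 2.73). The glucose transporter Slc2a1 held 11.8 and 27.3 CPM (1.21, 1.09 to 1.33). The log2 ratio was 1.02 for Pfkl, 1.05 for Pfkfb3, a regulator of phosphofructokinase, 0.76 for lactate dehydrogenase Ldha and 1.68 for the muscle enolase Eno3.

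Enolase, the step between Pgam1 and Pkm, moved differently from its neighbours. Eno1, the main enolase outside muscle and nerve, held 135 and 114 CPM in CD8 cells (log2 ratio -0.24, -0.29 to -0.20) and 130 and 111 CPM in CD4 cells (log2 ratio -0.22, -0.39 to -0.06). Its near-identical copy Eno1b held 6.95 and 8.98 CPM in CD8 cells, and the split of reads between the copies makes the Eno1 level uncertain. Like the lower enzymes, Eno1 was higher in cycling than in non-cycling CD8 cells, at 0.55 (0.48 to 0.63) at day +7 and 0.32 (0.24 to 0.41) at day +14. Slc2a3 (0.48), Bpgm (0.37), Tigar (0.18) and Slc16a1 (-0.02) were under 1.5-fold between the days in CD8 cells.

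**Figure D4:**
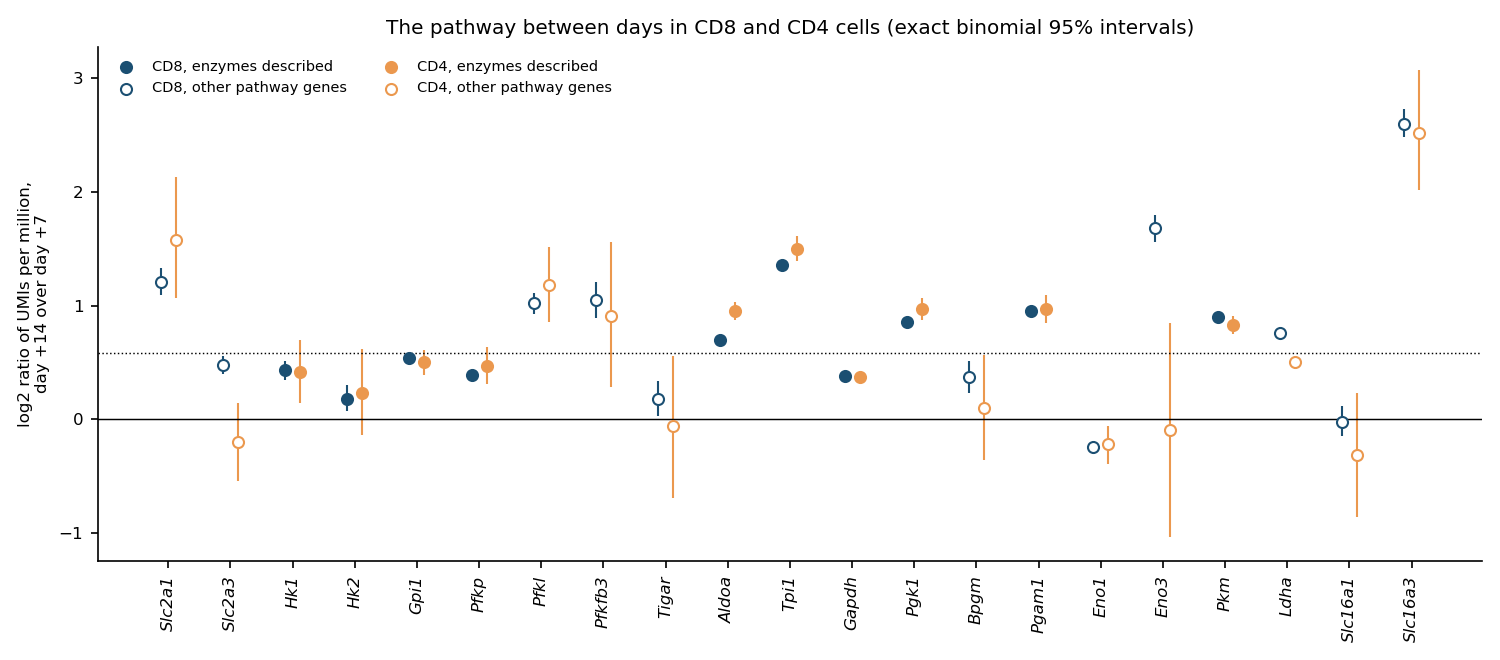
Log2 ratio of CPM at day +14 over day +7 (y axis) in CD8 (blue) and CD4 (orange) cells for the 10 enzymes (filled) and 11 other pathway genes (open), by step along the x axis, with exact binomial 95% intervals and 1.5-fold as a dotted line. Eno1 lies below 0 in both gates between Pgam1, at 0.95 in CD8 cells, and Pkm, at 0.90, Slc16a3, which reached 10 CPM at day +14 only, is at 2.60, and Hk2, at 0.18, turned to -0.03 when scaled by the median ratio.

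Across CD8 and CD4 cells, cycling and not, on both days, which gives 8 points from 2 libraries, Tpi1 spanned a 7.72-fold range, Pgam1 3.85-fold and Pkm 3.49-fold. Gpi1, Pfkp and Hk1 spanned 1.67-fold, 1.68-fold and 1.71-fold. Pearson's r of the log2 level with the mean of the other 9 enzymes was highest for Pgk1 (0.99) and lowest for Hk2 (0.36). With Foxp3+ and non-T cells added, 12 points in all, it was -0.23 for Hk1.

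Outside the list, the 5 genes most like the mean of the enzymes over those 12 points, among 2577 genes compared, were Rtn3 (r = 0.916), Phip (0.876), Morf4l1 (0.831), Atxn10 (0.831) and Impa2 (0.821). Rtn3, a reticulon of the endoplasmic reticulum, ranged from 75.2 to 147 CPM. The points share libraries and depth, so these values are a description.

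In the GENCODE annotation of GRCm38, 7 of the 10 enzymes overlap a gene on the opposite strand, such as Spsb2 over 34 bases of Tpi1 and Hk1os over 23112 bases of Hk1, and how strand was used in counting is not given in the sources used here. Copies of Aldoa and Gapdh held few UMIs, with 8 and 13 for Aldoart1 and 7 and 9 for Gm3839 over all barcodes of day +7 and day +14.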

How the data were processed

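Splenic donor T cells sorted from recipients at day +7 and day +14 were profiled by scRNA-seq, with 1 library per day. According to the submitters' processing notes and the deposited files, the authors made whole-number counts of UMIs per gene and barcode with Cell Ranger 6.1.2 on build mm10, with no normalization. The annotation and the use of intronic or antisense reads are not given in the sources used here.

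Barcodes with 500 to 7500 detected genes and at most 15% mitochondrial UMIs were kept. Within each library, UMIs of all cells in a gate were added up and divided by the total of the gate, as UMIs per 1000000 (CPM). A level carries an exact Poisson 95% interval, and a log2 ratio an exact conditional binomial (Clopper-Pearson) 95% interval. These intervals cover counting error only. With 1 library per day there is no replicate and no P value, and an enzyme or gene was counted when its ratio reached 1.5-fold and its mean over both sides reached 10 CPM. The share of all such genes that passed the same fold is given beside the counts of the 10 enzymes in each comparison at this fold under the main settings. It is not given for counts under another scaling, thinning, cut or fold.

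T cells held at least 3 UMIs and 1000 CPM of Trac, Trbc1, Trbc2, Cd3g, Cd3e and Cd3d, and more UMIs of these than of neutrophil or monocyte, macrophage, erythroid and B cell genes together. Among them, Cd8a or Cd8b1 without Cd4 and Foxp3 marked CD8 cells, Cd4 without Cd8a, Cd8b1 and Foxp3 marked CD4 cells, and Foxp3 without Cd8a and Cd8b1 marked Foxp3+ cells, each from 1 UMI on. Cycling cells held at least 1000 CPM of 11 proliferation genes (Mki67, Top2a, Birc5, Cdk1, Ccnb2, Ube2c, Nusap1, Tpx2, Pclaf, Rrm2 and Tyms). Non-T cells held more UMIs of the other lists than of T cell genes and less than 1000 CPM of the latter. Scrublet, run in scanpy 1.11.5, called 0 barcodes in each library, so that doublets were not removed by it.

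The 10 enzymes, 28 other pathway genes, gates and lists were chosen with earlier results of these data known. All 10 enzymes are named, other pathway genes where at 10 CPM or more in T cells, and the 5 genes most like the enzymes by Pearson's r. The alternatives were another scaling (the median ratio of genes with at least 100 UMIs on both sides), another total, the mean of per-cell CPM, thinning to 4000 UMIs, a mitochondrial limit of 5%, removal of the highest Scrublet scores, other gates and other folds. The removal of shared barcodes and the split of non-T cells were added after the data were seen. The ratios and intervals were tested on simulated counts with known folds. Computing used Python 3.11.15, numpy 2.4.6, scipy 1.17.1 and pandas 2.3.3.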

Additional observations from a re-analysis of the deposited data

Results flagged for a closer look

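Values in 2 cell types moved in opposite directions between the days with intervals clear of 0 on both sides. Hk1 was lower at day +14 in non-T barcodes, at a log2 ratio of -1.41, and higher in CD8 cells, at 0.43. Within the non-T barcodes Hk1 was at -0.17 (-1.13 to 0.79) in myeloid-like and 0.13 (-0.58 to 0.76) in erythroid-like barcodes, and erythroid-like barcodes, with Hk1 at 145 and 158 CPM, went from 111 of 183 to 22 of 118. Aldoa was lower at day +14 in erythroid-like barcodes, at -0.78, and higher in CD8 cells, at 0.70. Gapdh was at -0.47 in erythroid-like barcodes and 0.38 in CD8 cells. The last 2 rest on 27 and 98 UMIs of 22 barcodes at day +14, whose median depth was 2446.5 UMIs against 32315 at day +7. None of these differences was tested, since there is 1 library per day, and the part of depth and cell mix in them was not tested.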

How the results depend on the processing

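Each count of enzymes at least 1.5-fold higher was recomputed with 1 choice changed at a time. The share of all genes that passed is not given for these alternatives, so their counts have no background beside them. Of 142 such counts, 120 stayed within 1.5 times the value given above. Some of the 142 could not move, so the 120 are no measure of stability. The cycling cuts do not enter the CD8, CD4, Foxp3+ and non-T gates. A higher minimum of lineage UMIs does not enter the cycling T, non-cycling T and non-T gates. Dropping the filter on low counts changed no count, since the enzymes all passed it in these gates. With enzymes counted from 25% higher on, the counts were 9 in CD8, CD4, cycling T, non-cycling T, cycling CD8 and non-cycling CD8 cells. For cycling over non-cycling CD8 cells at day +14 the count was 6. All genes tested had a median day ratio of 0.19 on the log2 scale in CD8 cells, so many counts of 9 cannot be judged without a background. With a fold of 2, they were 1 in CD8, CD4, cycling T and cycling CD8 cells, 0 in Foxp3+ cells, and 1 at day +7 and 0 at day +14 for cycling over non-cycling CD8 cells. In Foxp3+ cells the count was 1 after thinning to 4000 UMIs, 2 with at most 5% mitochondrial UMIs and 2 with a T cell gate of 3000 CPM. For cycling over non-cycling CD8 cells, a cut of 2000 CPM gave 2 at day +7 and 0 at day +14. That cut also moves cells just below it into the non-cycling group. At day +14 thinning gave 1, and a total without ribosomal protein, mitochondrial and histone genes gave 1. In erythroid-like barcodes alone the non-T count was 0. There the log2 ratios turned to 0.13 for Hk1, -0.68 for Gpi1, -1.74 for Pfkp, -0.78 for Aldoa, -0.49 for Tpi1, -0.47 for Gapdh, -0.14 for Pgk1, -0.71 for Pgam1 and -1.48 for Pkm. At day +14 these ratios rest on few UMIs, down to 1 for Pfkp and 2 for Pkm. In Foxp3+ cells thinning turned Hk2 to -0.12, Gpi1 to -0.06, Aldoa to -0.06 and Gapdh to -0.18, moved the median of the enzymes from 0.42 to 0.16 and left 5 of 10 above 0. The causes were not tested.

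No paired analysis was possible because each day is 1 library, and there was no replicate to leave out. Intervals reflect counting of UMIs alone, and differences between mice, sorts and runs cannot be told apart from the day. Foxp3+ cells and erythroid-like barcodes at day +14 limit what can be seen in them.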
